A study of Mus musculus with 1 sample.

Results

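Transcript levels of 10 genes that restrain or license T cells were examined in cultured mouse pancreas fibroblasts. The genes were Cd274, Pdcd1lg2, Cd276, Vtcn1, Icosl, Cd80 and Cd86 of the B7 family, the ectonucleotidase genes Nt5e and Entpd1, and Ido1, a gene of tryptophan breakdown. They were chosen by name, and all 10 had exactly 1 row among the 23386 genes of the table. The series asked how fibroblasts of pancreas tumours differ from those of normal pancreas. Only 1 library was analysed here, labelled Normal Fibroblast: RNA of a culture expanded in vitro from normal pancreas of a mouse of mixed C57BL/6 and BALB/c background whose genotype label includes tf1acre- and Tgfrb2flox/flox. The label thus names a Cre-negative animal with floxed alleles, and it spells the floxed gene Tgfrb2. The value column of the table carries a CAF code, the usual abbreviation of cancer-associated fibroblast, which goes against that label. The cells are therefore called the library labelled normal fibroblast, and no comparison between conditions was made.

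T cells read antigen together with signals from the B7 family, membrane proteins that bind receptors of the CD28 family. CD80 and CD86 bind CD28 and its inhibitory relative CTLA4, the ICOS ligand binds ICOS, and the products of Cd274 (PD-L1) and Pdcd1lg2 (PD-L2) bind the inhibitory receptor PD-1. The products of Cd276 (B7-H3) and Vtcn1 (B7-H4) are known for inhibiting T cells through receptors that are less settled. Extracellular ATP is inflammatory. CD39, the product of Entpd1, hydrolyses it to AMP, and CD73, the product of Nt5e, turns AMP into adenosine, which dampens T cells through adenosine receptors. IDO1 opens the ring of tryptophan on the way to kynurenine and is known as an enzyme induced by interferon gamma.

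Of the 52494688 reads recovered from the table, 3784 fell on the 10 genes. With 1 library there is no replicate, and every interval here is a 95% interval for counting error only, since reads are not independent molecules and the spread between cultures is unknown. Levels between genes are given as RPKM, reads per kilobase of exon per 1000000 reads. All 10 fibroblast markers reached 10 reads, and their median was 182 RPKM. Col1a1, the gene of a collagen I chain, had 424 RPKM and Vim, an intermediate filament gene, 603 RPKM. Lum was the lowest of the 10, with 278 reads and 2.16 RPKM. All 20 markers of leukocytes and antigen-presenting cells had at least 1 read, and 10 had at least 10 reads. Of all protein-coding genes, 90.9% had at least 1 read and 67.6% at least 10 reads. The 20 markers summed to 19.3 CPM (reads per 1000000 reads) and had a median of 0.0550 RPKM.

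The spread of the 10 genes was wide, from 2981 reads to 2 reads (levels shown by gene in the plot of RPKM). Of the 10 genes, 7 had at least 10 reads, beside 67.6% of all protein-coding genes, so this share was close to the background. At least 1 read was found for all 10 (90.9% of protein-coding genes) and at least 50 reads for 4 (57.7%). By contrast 1 gene, Cd276, lay at or above 4.94 RPKM, the median of protein-coding genes with at least 10 reads, beside 33.9% of all protein-coding genes with a known exon length. The median of the 10 genes was 0.133 RPKM, against 1.19 RPKM for all protein-coding genes. Cd276 alone held 78.8% of the reads of the 10 genes (exact Clopper-Pearson interval 77.4% to 80.1%), Nt5e 11.9% (10.9% to 12.9%) and Cd274 4.12% (3.51% to 4.81%).

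**Figure D1:**
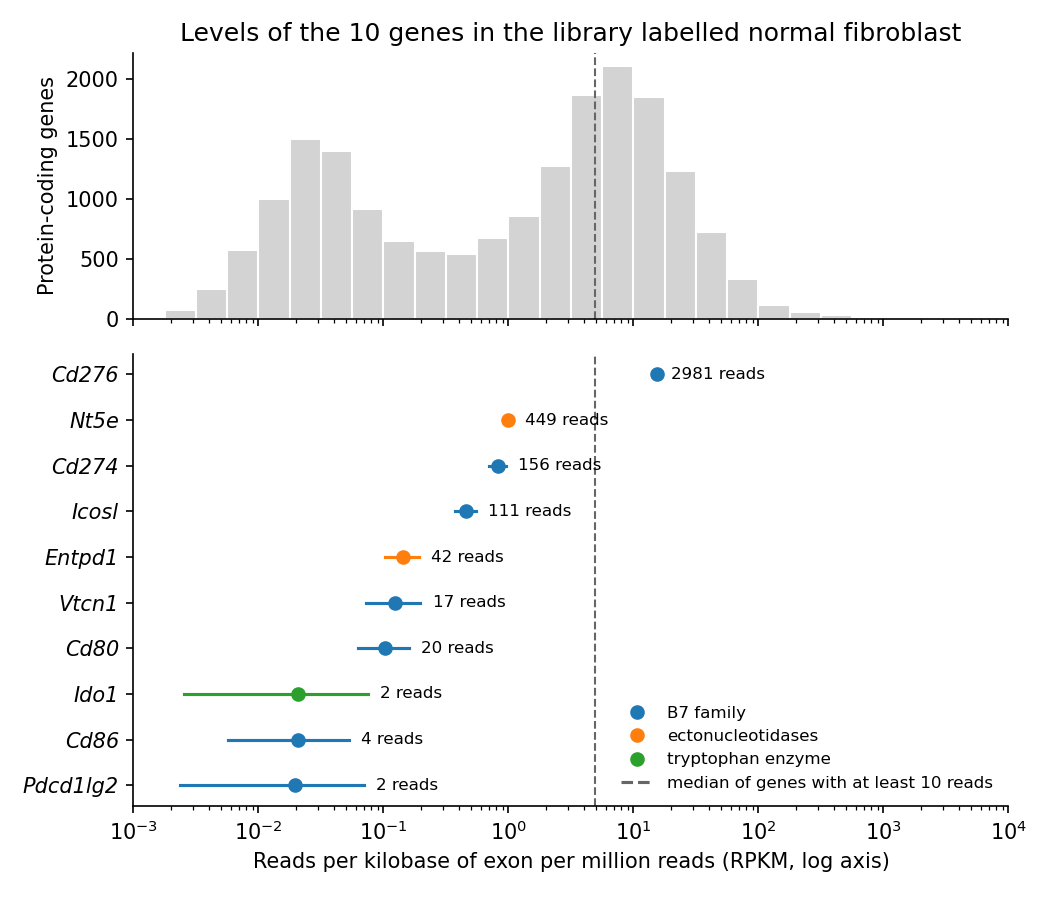
Top: number of protein-coding genes by level in RPKM (log axis), without the 1853 genes at 0 reads. Bottom: level of each of the 10 genes in the same library, with exact Poisson 95% intervals and read counts. Cd276 lies in the upper mode, right of the dashed median of 4.94 RPKM, and Ido1, Cd86 and Pdcd1lg2 lie in the lower mode.

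The levels of protein-coding genes fell into an upper and a lower mode, and the 10 genes were spread over both and the gap between them. Counted in steps of 0.25 log10 units, the upper mode was fullest from 5.62 to 10 RPKM (2112 genes) and the lower from 0.0178 to 0.0316 RPKM (1498 genes), with a low of 544 genes from 0.316 to 0.562 RPKM. Cd276 lay in the upper mode. Nt5e, Cd274 and Icosl lay near the gap, Entpd1, Vtcn1 and Cd80 on the upper flank of the lower mode, and Ido1, Cd86 and Pdcd1lg2 in its fullest step.

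Upstream sequence is printed for 3 of the B7 genes, the paired PD-1 ligand genes and Icosl, because the windows before these genes differ plainly in CpG dinucleotides. Each window is the 250 bases before the transcript start that RefSeq's promoter table uses, build GRCm38.p6. Only the longest stretch outside every GENCODE M21 exon is shown, from 5′ to 3′ on the strand of the gene, with every CpG in capitals.
Icosl, chr10:78069118-78069301, plus strand: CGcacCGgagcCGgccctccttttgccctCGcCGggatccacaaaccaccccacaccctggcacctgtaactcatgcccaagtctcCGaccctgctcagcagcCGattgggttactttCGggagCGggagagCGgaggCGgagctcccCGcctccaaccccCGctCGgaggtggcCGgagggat
Cd274, chr19:29367391-29367437, plus strand: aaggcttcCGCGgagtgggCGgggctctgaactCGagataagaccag
Pdcd1lg2, chr19:29410669-29410918, plus strand: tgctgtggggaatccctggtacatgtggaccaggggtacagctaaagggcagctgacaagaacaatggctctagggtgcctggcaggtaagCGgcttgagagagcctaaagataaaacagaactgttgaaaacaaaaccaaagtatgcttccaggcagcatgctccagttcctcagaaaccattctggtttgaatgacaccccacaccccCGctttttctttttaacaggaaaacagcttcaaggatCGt
The stretches held 15 CpG dinucleotides in 184 bases for Icosl, 4 in 47 bases for Cd274 and 3 in 250 bases for Pdcd1lg2. The whole windows held 23, 11 and 3, and that of Cd276, not shown, 29. For Cd274 the start used is 29367438, which lies inside the RefSeq span of the gene (from 29362107); GENCODE M21 starts the gene at 29367455.

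Among the 7 genes of the B7 family examined here, Cd276 stood far above the rest. Cd276 (chromosome 9, 58524300 to 58555033) had 2981 reads, which is 56.8 CPM (54.8 to 58.9) and 15.5 RPKM (15.0 to 16.1). Per length 85.8% of protein-coding genes were lower. Cd274 (chromosome 19, 29362107 to 29388095), the PD-L1 gene, had 156 reads, or 2.97 CPM (2.52 to 3.48) and 0.820 RPKM (0.697 to 0.960). Cd276 was thus 18.9-fold higher than Cd274 per kilobase of exon (exact conditional binomial interval 16.1 to 22.4). Cd274 had a level above that of 47.6% of protein-coding genes, close to the middle of all of them.

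The gene of the other PD-1 ligand was barely read. Pdcd1lg2 (chromosome 19, 29410919 to 29472927), which starts 22824 bases after the end of Cd274 on the same strand, had 2 reads, or 0.0381 CPM (0.00461 to 0.138) and 0.0194 RPKM (0.00235 to 0.0702). Per length, Cd274 was 42.2-fold higher than Pdcd1lg2, with a counting interval of 11.5 to 352 that is wide because it rests on 2 reads. Neighbouring genes of one family therefore differed in this library by more than counting error.

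Icosl, the ICOS ligand gene (chromosome 10, 78069368 to 78079525), was the remaining B7 gene above 100 reads, with 111 reads, 2.11 CPM (1.74 to 2.55) and 0.458 RPKM (0.377 to 0.551). Vtcn1, the B7-H4 gene (chromosome 3, 100825459 to 100896922), had 17 reads, or 0.324 CPM (0.189 to 0.519) and 0.124 RPKM (0.0719 to 0.198). Both were below the median of all protein-coding genes.

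The classical costimulatory pair was low and not even. Cd80 (chromosome 16, 38457430 to 38495958) had 20 reads, or 0.381 CPM (0.233 to 0.588) and 0.103 RPKM (0.0628 to 0.159). Cd86 (chromosome 16, 36568956 to 36666158) had 4 reads, or 0.0762 CPM (0.0208 to 0.195) and 0.0208 RPKM (0.00567 to 0.0533). Per length Cd80 was 4.94-fold higher than Cd86 (1.66 to 19.9). Both are best known from antigen-presenting cells. Of the 20 markers of these cells and of leukocytes, 10 had at least 10 reads and none lay at or above 4.94 RPKM. Over all protein-coding genes these shares were 67.6% and 33.9%. The class II chain genes H2-Aa, H2-Ab1 and H2-Eb1 had 7, 21 and 9 reads. The leukocyte common antigen gene Ptprc had 26 reads and Itgax, the CD11c gene, 17 reads. Higher in the list were the macrophage genes Csf1r and Cd68, with 268 and 235 reads, Zbtb46 with 213 and Itgam with 84 reads. No marker of this list was at 0, beside 90.9% of all protein-coding genes with at least 1 read. The part of such cells in the reads of Cd80 and Cd86 was not tested. In RNA of a whole culture, few cells with much of a transcript and many cells with little of it cannot be told apart.

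Of the ectonucleotidases, the gene of the adenosine-forming enzyme was the more abundant. Nt5e, the CD73 gene (chromosome 9, 88327609 to 88372089), had 449 reads, or 8.55 CPM (7.78 to 9.38) and 0.994 RPKM (0.904 to 1.09). Entpd1, the CD39 gene (chromosome 19, 40612366 to 40741602), had 42 reads, or 0.800 CPM (0.577 to 1.08) and 0.143 RPKM (0.103 to 0.194). Nt5e was 6.93-fold higher than Entpd1 per kilobase of exon (5.05 to 9.76), 11.3-fold (8.22 to 15.9) per kilobase of the longest transcript and 10.8-fold (7.89 to 15.2) per coding length. Its exons span 8602 bases over all annotated transcripts but 3995 bases in the longest of them, so its level per kilobase depends on the length used.

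Entpd1 is well known from endothelium and leukocytes. Of 10 endothelial markers, 8 reached 10 reads, beside 67.6% of all protein-coding genes, and the list median was 0.0587 RPKM. The defining genes Pecam1 and Cdh5 had 13 and 17 reads, whereas Kdr, Flt1 and Eng had 20.1, 7.55 and 15.8 RPKM. The list summed to 350 CPM. The part of endothelial cells in the 42 reads of Entpd1 was not tested.

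Ido1 (chromosome 8, 24584133 to 24596952) was near the floor, with 2 reads, or 0.0381 CPM (0.00461 to 0.138) and 0.0209 RPKM (0.00253 to 0.0754). For scale, with 3 reads taken as the limit that a count of 0 allows, the floor was 0.0571 CPM. The exact Poisson interval used here ends higher for 0 reads, at 0.0703 CPM. The read numbers of Ido1 and of Pdcd1lg2 lay below the 3-read limit, and this depth gives neither a firm level. T and B cell lineage genes had like values in the same library: Cd3e had 3 reads, at 0.0140 RPKM, and Ms4a1 had 4 reads, at 0.0123 RPKM.

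In order of level per kilobase of exon, the genes ran Cd276, Nt5e, Cd274, Icosl, Entpd1, Vtcn1, Cd80, Ido1, Cd86 and Pdcd1lg2. Of the 9 pairs of neighbours in that order, 5 differed by more than counting error. The step from Cd276 to Nt5e was 15.6-fold (14.1 to 17.3), that from Nt5e to Cd274 1.21-fold (1.01 to 1.46), that from Cd274 to Icosl 1.79-fold (1.40 to 2.31) and that from Icosl to Entpd1 3.19-fold (2.22 to 4.67). Entpd1, Vtcn1 and Cd80 did not differ beyond counting error, since the interval of Entpd1 over Cd80 ran from 0.800 to 2.51. Cd80 was 4.93-fold above Ido1 (1.20 to 43.5), and the order of Ido1, Cd86 and Pdcd1lg2 was not resolved. Division by the longest transcript left 4 of the 9 steps beyond counting error: Cd274 over Icosl became 1.09-fold (0.851 to 1.41), and Nt5e over Cd274 2.61-fold (2.17 to 3.15).

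**Figure D2:**
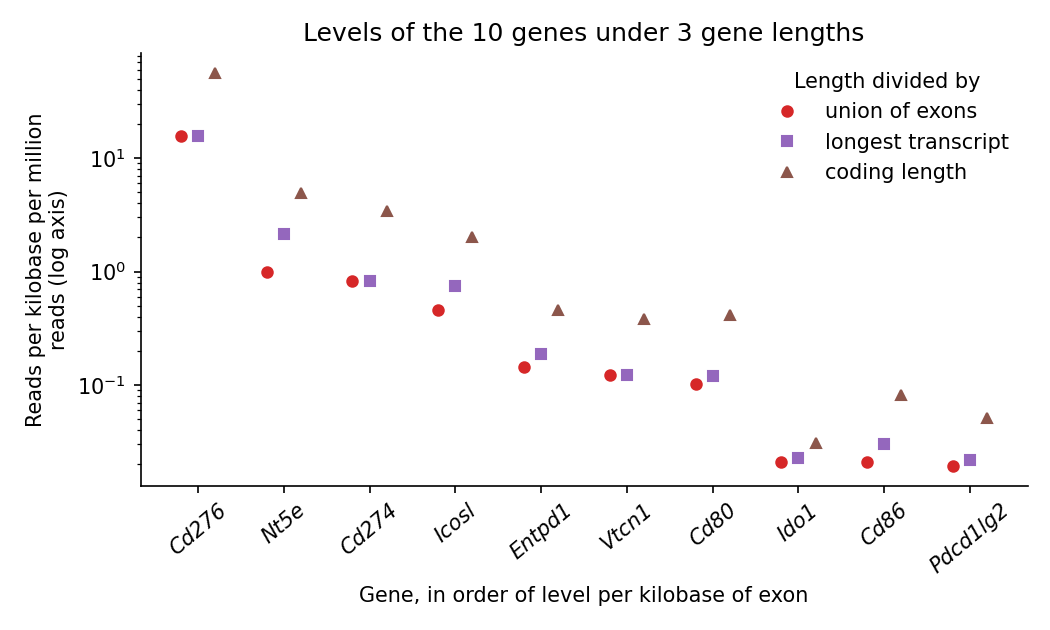
Level of each of the 10 genes in reads per kilobase per 1000000 reads (log axis) when reads were divided by the union of exons, the longest transcript or the coding length. Cd276 leads and Nt5e, Cd274, Icosl and Entpd1 follow in that order under each length, while the order of the other 5 genes changes.

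Other genes of the same pathways were set beside the 10. For these lists the background is 67.6% of all protein-coding genes with at least 10 reads and 33.9% at or above 4.94 RPKM. Of 25 further ligands of immune checkpoint and related receptors, 20 (80%) had at least 10 reads. At or above 4.94 RPKM lay 9 (36%), a share close to the background, and the list median was 3.18 RPKM. Lgals9, the gene of galectin-9, had 64.4 RPKM (62.9 to 65.9) and Nectin2, an adhesion gene whose product binds receptors of the CD226 group, 36.5 RPKM (35.6 to 37.4). Pvr, the gene of CD155, also a ligand of that group, had 15.7 RPKM (15.3 to 16.2), an interval that overlaps that of Cd276. Cd24a had 33.3 RPKM, Cd200 12.5 RPKM, Vsir, the gene of the B7-related protein VISTA, 9.00 RPKM and the NKG2D ligand gene Ulbp1 10.3 RPKM. The class I genes H2-D1 and H2-K1 had 14.0 and 10.3 RPKM, values that are uncertain because close copies can share reads. Cd274, at 0.820 RPKM, was below each of these 9, whereas Cd276, at 15.5 RPKM, was below Lgals9, Nectin2 and Cd24a and above Cd200, Vsir and Ulbp1.

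The TNF family costimulators and related genes set beside them were scarce. Of 10 such genes, 4 (40%) had at least 10 reads, none lay at or above 4.94 RPKM, and the median was 0.0406 RPKM. The 4 were Tnfsf9, the 4-1BB ligand gene, with 237 reads (3.50 RPKM), Tnfsf18 with 30, Tnfsf15 with 28 and Tnfsf10 with 11 reads.

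Receptors of the ligands are genes of lymphocytes and myeloid cells for the most part. Of 17, 7 (41.2%) reached 10 reads, beside 67.6% of all protein-coding genes, and their list median stood at 0.0349 RPKM. Pdcd1, the PD-1 gene, had 2 reads, Ctla4 had 0 reads, which allows up to 0.0571 CPM by the 3-read limit (exact Poisson upper end 0.0703 CPM), and Cd28 and Icos had 8 and 20 reads. Trem2, Havcr2, Lag3 and Tigit had 124, 85, 60 and 10 reads. Sirpa, the CD47 receptor gene, was the receptor at or above 4.94 RPKM, with 15.8 RPKM (15.4 to 16.3). Rgmb, which encodes a binding partner of PD-L2, had 3.75 RPKM (3.56 to 3.94), beside 2 reads of Pdcd1lg2 itself.

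**Figure D3:**
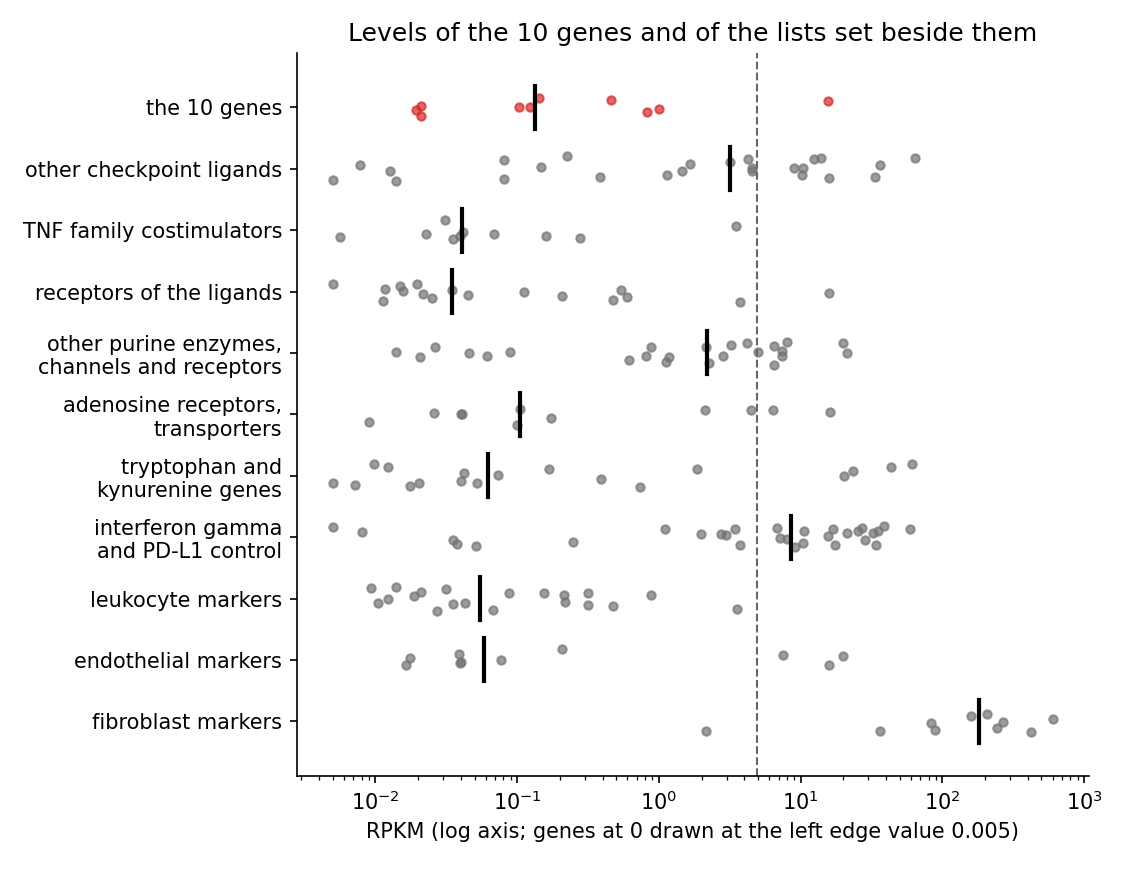
Level in RPKM (log axis) of the 10 genes in red and of the genes of each list in grey, with the list median as a black bar and the median of protein-coding genes with at least 10 reads (4.94 RPKM) as a dashed line; genes at 0 reads are drawn at 0.005. The medians of the TNF family costimulators and of the receptors lie below that of the 10 genes, those of the other checkpoint ligands and of interferon gamma signalling above it.

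Around the ectonucleotidases, 20 of 24 further genes of purine handling had at least 10 reads, 8 lay at or above 4.94 RPKM, and the median was 2.19 RPKM. Cd38, whose product consumes NAD and feeds another route to AMP, had 7.43 RPKM (7.06 to 7.82). Enpp1, which cleaves ATP to AMP, had 0.617 RPKM (0.552 to 0.687). Of related genes, Entpd2 had 1.12 RPKM (0.931 to 1.33) and Enpp3 0.810 RPKM (0.714 to 0.916). Entpd7, Entpd5 and Entpd6 had 6.52, 6.46 and 2.83 RPKM. Entpd4, Entpd3, Enpp2 and Entpd8 had 38, 9, 8 and 2 reads. The ATP-gated channel gene P2rx7 had 7.95 RPKM. Adk, the gene of adenosine kinase, which returns adenosine to AMP inside cells, had 21.2 RPKM (20.8 to 21.7), and Ada, the adenosine deaminase gene, 1.17 RPKM (0.973 to 1.40). Of 11 adenosine receptors and nucleoside transporters, 8 (72.7%) had at least 10 reads and 2 (18.2%) lay at or above 4.94 RPKM. These were the equilibrative transporter gene Slc29a1, at 16.1 RPKM (15.6 to 16.7), and the low-affinity receptor gene Adora2b, at 6.38 RPKM (5.89 to 6.90), whereas Adora2a, the receptor gene best known from T cells, had 16 reads. Adk, Slc29a1 and Adora2b had higher levels per kilobase than Nt5e and Entpd1.

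The kynurenine route was sparse beyond Ido1. Of 18 further genes of tryptophan handling, 10 (55.6%) reached 10 reads and 4 (22.2%) lay at or above 4.94 RPKM. Over all protein-coding genes the shares were 67.6% and 33.9%. The list median stood at 0.0626 RPKM. The other genes of the ring-opening step were also low, Ido2 with 8 reads and Tdo2 with 2. Afmid, whose product acts on the product of IDO1, had 345 reads (1.86 RPKM). The 4 genes at or above 4.94 RPKM were those of the amino acid transporter subunits, Slc3a2 (61.0 RPKM) and Slc7a5 (43.4 RPKM), of tryptophanyl-tRNA synthetase, Wars (23.5 RPKM), and of the kynurenine-responsive receptor, Ahr (20.2 RPKM).

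Components of interferon gamma signalling, the best known inducer of PD-L1 and IDO1, were present. Of 30 genes of that pathway and of PD-L1 control, 27 (90%) had at least 10 reads and 18 (60%) lay at or above 4.94 RPKM. These shares stand beside 67.6% and 33.9% of all protein-coding genes, and the list median was 8.60 RPKM. The receptor chain genes Ifngr1 and Ifngr2 had 16.8 and 21.4 RPKM, the kinase gene Jak2 59.2 RPKM, and the transcription factor gene Irf1 9.15 RPKM. Ifng itself had 0 reads. Cmtm6, whose product stabilises PD-L1 at the cell surface, had 15.7 RPKM (15.1 to 16.3), against 0.820 RPKM for Cd274. Of the other PD-L1 control genes, Stub1, Spop, Cmtm4 and Gsk3b had 34.9, 34.2, 28.6 and 25.6 RPKM. Cops5, Hip1r and Cop1 had 17.6, 2.97 and 1.99 RPKM. The net effect of these genes on PD-L1 was not tested. Among targets of the pathway Gbp2 had 3.75 RPKM, Cxcl10 131 reads and Cxcl9 6 reads.

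The upstream windows differed along with the levels. RefSeq windows were found for 8 of the 10 genes (9 windows, of which Entpd1 has 2). Those of Cd274 and Cd80 and the second of Entpd1 lie inside the RefSeq span of the gene, before starts at 29367438, 38458933 and 40659770. By GENCODE M21, 5 of the 9 windows hold bases of an exon: those of Cd276, Nt5e, Cd274 and Icosl and the first of Entpd1. Those of Cd276 and Nt5e lie within exons over all 250 bases, since GENCODE starts these genes further upstream. The exon bases before Cd274 (185) and Entpd1 (118) lie outside the GENCODE span of these genes. Their opposite-strand neighbours Plgrkt and Tctn3 lie 65 and 133 bases away on that side. The ratio of observed to expected CpG dinucleotides, with the higher value where a gene has more than 1 window, was 0.781 for Cd276, 0.649 for Nt5e, 0.696 for Cd274, 0.784 for Icosl and 0.741 for Entpd1. It was 0.307 for Vtcn1, 0.174 for Cd80 and 0.205 for Pdcd1lg2. The 5 genes with a ratio of at least 0.6, a limit chosen after values were seen, were the 5 highest of the 8 in level. The 5 windows with exon bases belong to these same 5 genes. Counting error leaves the division unresolved at its edge, where Entpd1 was 1.16-fold Vtcn1 (0.647 to 2.18) and 1.39-fold Cd80 (0.800 to 2.51). The second window of Entpd1 had a ratio of 0.583, under that limit, so the place of Entpd1 in this division rests on its other window. Within the 5, the order of the ratios was not that of the levels: Icosl had the highest ratio and less than Cd276, Nt5e and Cd274 in RPKM.

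The same relation held across the 16240 protein-coding genes with a window, so it is not particular to the 10 genes. Of 8168 protein-coding genes with a ratio of at least 0.6, 92.4% had at least 10 reads (median 5.81 RPKM). Of 8072 genes below it, 42.1% did (median 0.0379 RPKM). Windows were at hand for 79.0% of protein-coding genes, too few to speak for all of them. Nt5e, Cd274, Icosl and Entpd1 lay below the 5.81 RPKM of genes with such windows.

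**Figure D4:**
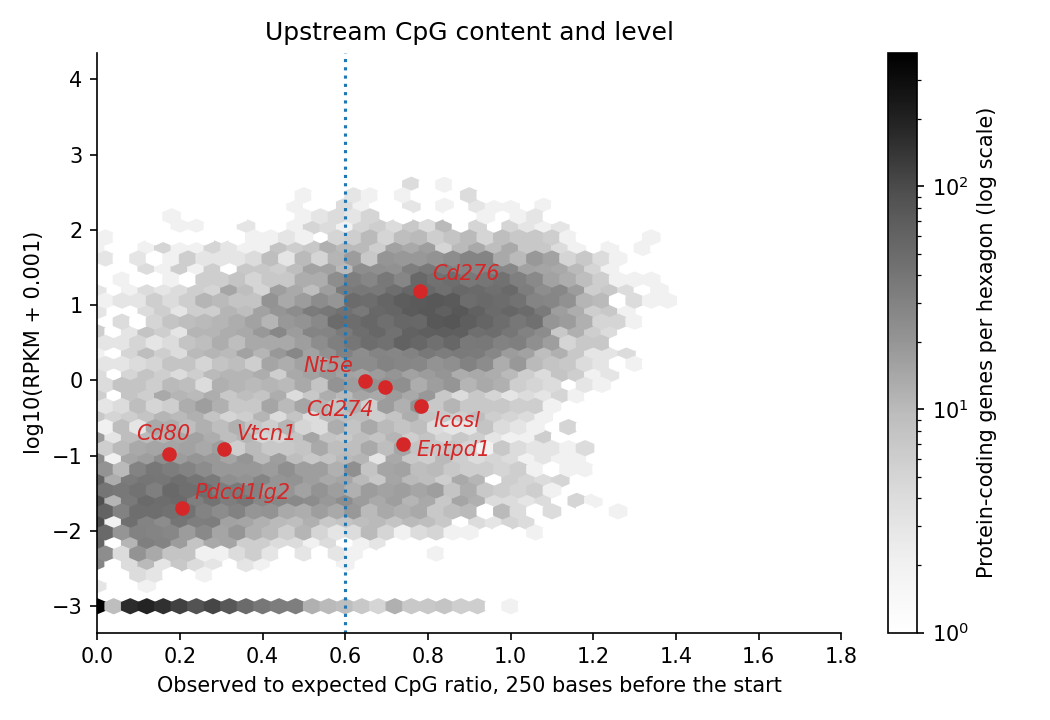
Observed to expected CpG ratio of the 250 bases before the start in RefSeq's promoter table (horizontal axis; the higher ratio where a gene has several windows) and log10(RPKM + 0.001) (vertical axis) of 16240 protein-coding genes, as the number of genes per hexagon, with 8 of the 10 genes in red and a dotted line at a ratio of 0.6; genes at 0 reads lie at -3. Cd276, Nt5e, Cd274, Icosl and Entpd1 lie right of the line, and Vtcn1, Cd80 and Pdcd1lg2 left of it.

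Short motifs were counted in the same 250 bases on both strands. The GC box letters GGGCGG occurred 3 times before Cd276, 4 times before Nt5e and once each before Cd274 and Icosl, and they occur in 32.7% of all 32851 windows. The gamma-activated site core TTCNNNGAA, found in 7.02% of windows, and the letters TATAAA, found in 12.4%, occurred in 0 of the 9 windows. Matches of different motifs were counted separately even where they overlapped. A missing match says only that these letters are not in these windows.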

How the data were processed

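Total RNA of 1 culture was made into a SOLiD library, per the labels' protocols. The authors' deposited signal is 1 value per RefSeq row, which behaves as read counts divided by a size factor of 0.850: all 20976 values above 0 were whole multiples of 1.18 within 0.01 of a read. DESeq and mm10 are named in the submitters' processing notes without a role. The sources used here give no aligner, counter, strand setting, annotation release or filter. Reads of overlapping or antisense genes therefore cannot be told apart.

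Reads were recovered by that division, and the design's count measures were run on them. Rows of a repeated name were summed (24214 rows, 23386 genes); 98.4% of rows matched a GRCm38.p6 RefSeq accession, which gave positions and current symbols. Protein-coding means an NM accession (20559 genes). Lengths are unions of GENCODE M21 exons (20474 coding genes). A gene counted as detected at 10 reads. Poisson, binomial and Clopper-Pearson intervals are exact at 95%. No test between groups was possible. The members and the lists (195 names, all with a row) were chosen with earlier results of these data known. All 10 members are named. List genes are named when at or above the median RPKM of detected coding genes or when partnered with a member. Others were named after their values were seen, and the CpG limit and the motifs were chosen in the same way. A few items are not reported here. Scripts ran in Python 3.11.15 with scipy 1.17.1, matplotlib 3.10.9, pandas 2.3.3 and numpy 2.4.6, and were tested on simulated data.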

Additional observations from a re-analysis of the deposited data

How the results depend on the processing

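No paired analysis was possible because there is 1 sample, and no replicate could be left out. Each of the 10 genes has 1 row, so taking each row on its own could not change their CPM. With the total of protein-coding genes Cd276 rose to 61.8 CPM, and without the 100 most abundant genes Cd276 had 76.0, Nt5e 11.4, Cd274 3.98 and Icosl 2.83 CPM; the other genes moved within their intervals. The 7 genes detected became 10 at 1 read and 4 at 50 reads. The ratio of Nt5e to Entpd1 was 11.3 per longest transcript and 10.8 per coding length, against 6.93 per union of exons, since the exon union of Nt5e is long; those of Cd276 to Cd274 (16.6 to 19.2) and Cd274 to Pdcd1lg2 (37.2 to 66.4) stayed within their intervals. The median log2(CPM + 0.5) of the 10 genes, 0.10, became 2.48 with a pseudocount of 5, 1.39 when genes under 10 reads were left out and -0.66 per kilobase, against 2.38, 3.28, 4.45 and 0.75 for all protein-coding genes, which was the higher median under each setting. Members with 2 to 4 reads are limited by depth.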

Other observations

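The genes next to the 10 on the chromosome, by GENCODE M21 positions, were also read. By these positions Cd274 starts at 29367455, 65 bases from the start of Plgrkt, a plasminogen receptor gene on the opposite strand, and the genes are read away from each other. Plgrkt had 914 reads and 4.58 RPKM, against 0.820 RPKM for Cd274. On the other side of Pdcd1lg2, at 2 reads, Ric1 had 7756 reads and 13.8 RPKM. The antisense RNA gene A930007I19Rik, which overlaps Pdcd1lg2, had 21 reads. Entpd1, at 0.143 RPKM, lies 133 bases from Tctn3, a gene of the primary cilium on the opposite strand, which had 962 reads and 5.60 RPKM. Cd80, at 0.103 RPKM, lies between Adprh (13.9 RPKM) and Timmdc1 (13.6 RPKM), each within 2858 bases of it. Cd86 and Ido1 lie among genes that were also near the floor: Casr and Ildr1 beside Cd86 had 7 and 4 reads, and Ido2 and Adam18 beside Ido1 had 8 and 2 reads. Cd276, the most abundant of the 10, lies between Insyn1 (12.3 RPKM) and Nptn (50.2 RPKM).

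Of 10 epithelial markers, 9 had at least 10 reads, beside 67.6% of all protein-coding genes. The list median was 0.785 RPKM, and Krt18 (8.22 RPKM) and Krt19 (5.98 RPKM) led the list. Cdh1, Krt7, Krt8 and Epcam had 1.15, 1.14, 1.04 and 0.529 RPKM. Esrp1, Cldn7, Cldn3 and Grhl2 were lower still, with 0.121, 0.117, 0.0757 and 0.0376 RPKM. The part of epithelial cells in the reads of Cd276, Nt5e or Vtcn1, which epithelia can also express, was not tested.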
